A study of Mus musculus with 47 samples.

Results

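A set of 122 genes was examined, of 17754 entries in a table of RNA-seq expression from 47 libraries of mouse T-cell precursors. The members were chosen by 2 measured differences. Each member was at least 1 higher on the log2(FPKM + 1) scale in normal DN2b than in normal DN2a cells. Each was also lower by 0.75 or more in Bcl11b knockout than in control cells grown on OP9-DL1 stroma with the standard IL-7 level. FPKM counts sequenced fragments relative to transcript length and library size, and a member had to reach a mean of 5 FPKM in DN2b. Predicted genes and 18 named genes were left out, so that 122 of 157 entries passing the thresholds remained. They carry 121 symbols, because Hdac4 has 2 entries.

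DN2a and DN2b are consecutive stages of thymocyte precursors that lack CD4 and CD8, and commitment to the T lineage takes place between them. Bcl11b, a DNA-binding protein with zinc fingers, comes on at that step in cells that receive Notch signals. Precursors without it are known to keep Kit, to expand with cytokine and to express genes of natural killer and innate lymphoid cells. In normal precursors the same period brings up the signalling molecules of the pre-T-cell receptor, the recombinases that cut receptor genes, and receptor segments themselves.

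The normal cells were C57BL/6 (B6) precursors from embryonic day 13.5 fetal liver, grown on OP9-DL1 without Cre. There were 4 DN2a libraries, 1 of which was harvested at day 4.5, and 2 DN2b libraries, 1 of which is titled DN3. Knockout and control fetal liver cells both received a Cre retrovirus before differentiation. The knockout cells came from Bcl11b fl/fl embryos of 2 mouse sources and the controls from B6 embryos, both in part with a ROSA26R-YFP reporter. Stroma of the OP9 line carrying the Notch ligand DL1 or DL4 supported both, with Flt3L and IL-7. The rule used the 7 knockout and 6 control DL1 libraries at standard IL-7, harvested between day 9 and day 12. It used none of 12 others, called held-out here. These were 7 knockout libraries (1 on DL1 and 3 on DL4 with reduced IL-7, 3 on DL4 with standard IL-7) and 5 controls (2, 1 and 2 in the same order). Further libraries, 1 or 2 per condition, came from thymus, bone marrow and fetal liver cells that received a second vector. The thymic ones were a knockout and a control with LckCre, CreERT2 cells with and without floxed Bcl11b taken ex vivo, and the same genotypes cultured on DL4 after 4-OH tamoxifen. The bone marrow cells carried CreERT2 with floxed or wildtype Bcl11b and also received tamoxifen. Another 4 libraries were normal cells exposed for 12 hours to 1 µM GSI, an inhibitor of the gamma-secretase that releases the active part of Notch.

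Bcl11b itself stood between 23.6 and 29.6 FPKM in the held-out knockout libraries and between 16.9 and 80.7 in the held-out controls. The low value belongs to DL1 reduced IL-7 control replicate 1, so Bcl11b FPKM did not separate the labels. Transcripts from a deleted allele can still be counted, and which exons were removed is not given in the sources used here. Kit (38.6 to 93.8 in knockout, 8.98 to 33.2 in control) and Cd3e (5.60 to 56.2 against 74.9 to 176) did not overlap between the held-out groups. The held-out knockout cells are titled DN2a and the controls DN2b, gates that differ in Kit, so genotype and sorting gate cannot be told apart there. The DL1 libraries that chose the members are titled DN2 on both sides in 3 title dates and otherwise mix DN2, DN2a and DN2b. In these bulk samples a lower value can mean fewer cells of a type or less RNA per cell, which cannot be told apart.

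The 250 bases before the start site are shown for 4 members, 2 because they encode receptor signalling proteins with high levels in DN2b (Lat and Plcg1) and 2 because they were low in knockout and higher with a Bcl11b vector (Uaca and Cd59a). Sequences are from RefSeq on GRCm38.p6, 5′ to 3′ on the gene's strand, with capitals marking matches on either strand. The letters searched were TGTGGT for Runx, CTTTGA for Tcf/Lef and GGAAG for Ets proteins. For E proteins they were CAGCTG, and a second form of that element written CAGGTG was searched as well. They were TGACCA for Bcl11 proteins. The factors of the Gata family, zinc-finger proteins that also act in this lineage, were searched as AGATAA. No match in these 4 overlapped another.
Lat, chr7:126369569-126369818, minus strand: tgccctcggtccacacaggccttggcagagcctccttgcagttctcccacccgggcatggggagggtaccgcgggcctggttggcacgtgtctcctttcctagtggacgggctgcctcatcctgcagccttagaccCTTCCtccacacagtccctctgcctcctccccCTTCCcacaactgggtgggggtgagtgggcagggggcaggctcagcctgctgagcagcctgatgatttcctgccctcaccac
Plcg1, chr2:160731060-160731309, plus strand: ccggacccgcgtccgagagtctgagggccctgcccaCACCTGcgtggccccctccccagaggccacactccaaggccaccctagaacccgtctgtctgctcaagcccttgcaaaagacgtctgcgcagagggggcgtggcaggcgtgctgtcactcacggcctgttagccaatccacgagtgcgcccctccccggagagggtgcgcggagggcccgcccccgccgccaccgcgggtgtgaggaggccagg
Uaca, chr9:60794192-60794441, plus strand: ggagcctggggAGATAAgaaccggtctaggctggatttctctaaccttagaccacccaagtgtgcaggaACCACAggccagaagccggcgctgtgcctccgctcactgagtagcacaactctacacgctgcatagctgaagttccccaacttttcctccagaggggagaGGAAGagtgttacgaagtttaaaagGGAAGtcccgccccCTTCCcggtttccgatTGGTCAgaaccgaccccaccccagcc
Cd59a, chr2:104095551-104095800, plus strand: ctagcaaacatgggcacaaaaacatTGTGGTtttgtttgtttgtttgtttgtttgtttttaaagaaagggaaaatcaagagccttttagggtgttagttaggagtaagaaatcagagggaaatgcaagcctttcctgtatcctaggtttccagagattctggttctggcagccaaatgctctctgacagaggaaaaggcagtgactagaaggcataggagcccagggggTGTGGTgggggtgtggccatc
In these windows Lat held 2 Ets matches, Plcg1 held 1 E protein match and Cd59a held 2 Runx matches. Uaca held matches to Runx (1), Ets (3), Gata (1) and Bcl11 (1).

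RefSeq promoters were found for 83 of 121 member symbols, 128 in all, beside 32851 of all genes. Runx letters were in 14.84% of member promoters and 14.05% of all, and Ets letters in 64.06% and 64.07%. E protein letters were in 35.94% against 27.74%. Tcf/Lef letters were in 8.59% against 13.83%, Gata letters in 7.03% against 9.99% and Bcl11 letters in 7.03% against 11.38%. The shares are over promoters, not genes, and Arpp21 alone supplied 9 of the 128 member promoters, some with overlapping windows. These shares describe letters in a window and carry no test.

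In the libraries that chose them, the members had a median difference of 1.75 for DN2b minus DN2a and of -1.02 for knockout minus control (all genes, 0.08 and -0.02). Of 9237 genes at 5 FPKM or more in DN2b, 9.51% were higher in DN2b by 1 or more and 2.65% were lower in knockout by 0.75 or more. Both differences were used for the choice, and nothing is read from them. The DL1 knockout cells can also be set beside DN2a. The knockout mean was above the DN2a mean for 92 members, by 1 or more for 43, and below it for 30. The rule used both of these groups and kept genes lower in DN2a than in DN2b. These counts therefore in part follow from the choice, and nothing is read from them either. All 7 knockout libraries held 93 members at 1 FPKM or more. In 2 ex vivo thymic DN3 libraries 114 of 122 members reached a mean of 5 FPKM. The share over all genes was not computed for the counts of 92, 43, 30, 93 and 114.

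The median over all members summarises each library. It was 1.85 to 2.65 in DN2a and 3.92 to 4.53 in DN2b on the log2(FPKM + 1) scale. It was 3.42 to 4.80 in the DL1 controls and 2.30 to 3.59 in the DL1 knockout libraries. The held-out knockout libraries lay between 2.45 and 3.44 and the held-out controls between 3.87 and 4.30, with no overlap. The DL1 groups overlapped, and both knockout groups reached down into the DN2a range. Within the DL1 knockout, the 3 libraries at day 9 had medians of 3.40, 2.30 and 2.84, the day 10 library 2.83, and those at day 12 had 2.85, 3.59 and 3.00.

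**Figure D1:**
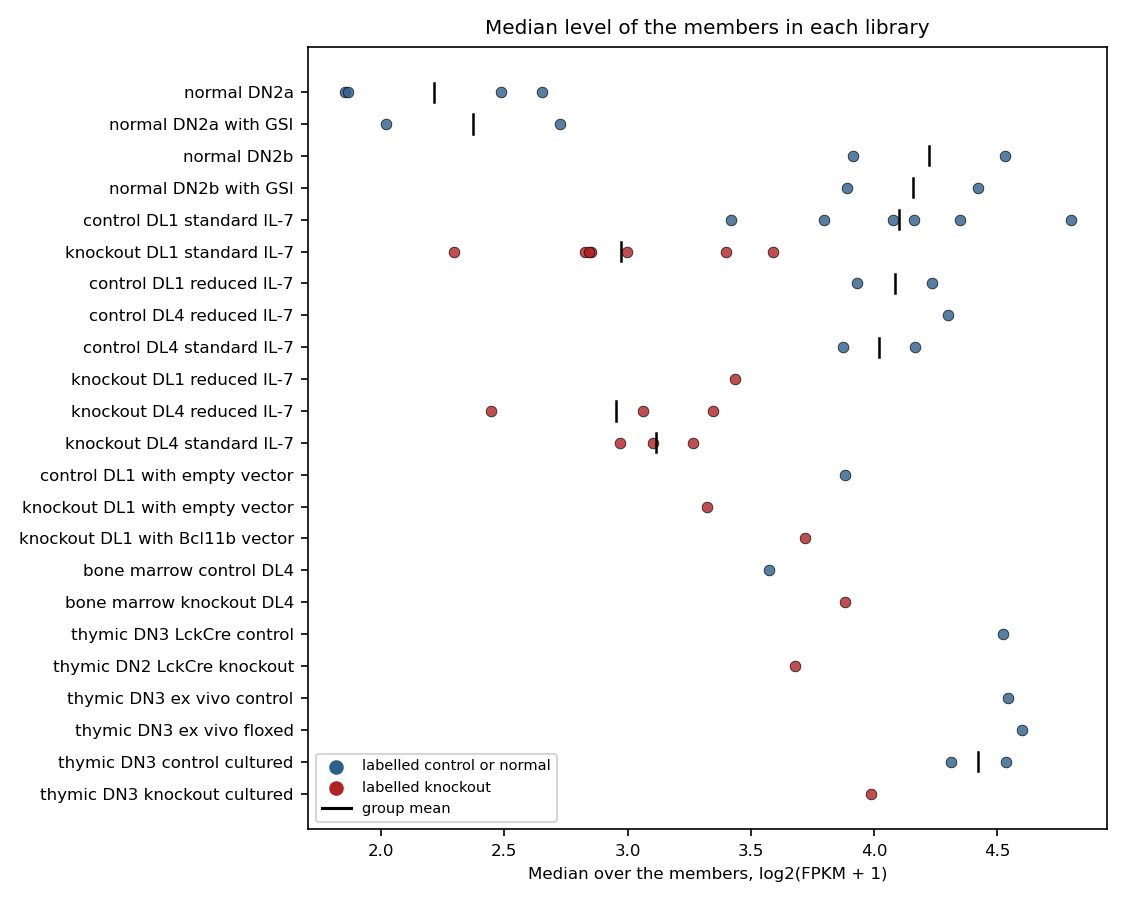
Each point is 1 library, placed by the median of log2(FPKM + 1) over the 122 members, with libraries grouped in rows and bars at the mean of groups with 2 or more. The held-out knockout rows on DL1 and DL4 lie between 2.45 and 3.44 and the matching control rows between 3.87 and 4.30, while the DN2a row lies between 1.85 and 2.65; the DL1 standard rows and the untreated DN2a and DN2b rows chose the members.

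The held-out libraries gave a test of knockout against control in cells the rule did not use, with genotype and sorting gate not told apart. There 49 of 122 members were called lower (adjusted p under 0.05, limma with stroma and IL-7 as covariates, Benjamini-Hochberg over 12710 genes), which is 40.2%, and 0 were called higher. Over all genes tested, 2.48% were called lower (315) and 639 were called higher. With quantile normalization those became 457 lower and 513 higher, and 58 members were lower. The knockout difference was below 0 for 121 of 122 members, and its median was -0.89 (all genes 0.08). Knockout and control values did not overlap for 39 members (32.0%), against 2.25% of all genes. Of 719 other genes that were higher by 1 or more in DN2b than in DN2a, 29 were called lower and 16 higher, and their median was 0.06. They had been selected for missing the DL1 knockout threshold, so their values in part follow from that choice and do not separate genotype from gate. The members were chosen for being higher in DN2b, the gate in the titles of the held-out controls. The members' calls, ranges and median above therefore do not separate genotype from gate either.

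The number of calls depended on the fit. With the 4 pairs that share title date, stroma and IL-7 as a replicate block, 3 members were called (Ndrg1, Cd59a and Pqlc3) of 22 genes in all. This fit kept 8 libraries and had 3 residual degrees of freedom, against 8 in the main fit. At an unadjusted p under 0.05 in limma it held 83 members and 1483 of all genes. The median was then -1.001 and 120 of 121 members were below 0. Leaving out the only control on DL4 with reduced IL-7 left 17 members called, beside 110 of 12902 genes called lower. Leaving out the only knockout library on DL1 left 24 members, beside 132 of 12586 genes. Leaving out control DL4 standard replicate 2 left 29 members, beside 196 of 12875 genes. Without the control library low in Bcl11b, 55 members were called, with a median of -0.95, beside 341 of 12919 genes called lower. Within DL4 at standard IL-7 alone, 15 were called with a median of -0.83, beside 101 of 12793 genes called lower. Within reduced IL-7 alone, 18 were called with a median of -0.98, beside 94 of 12879 genes. Natural killer and innate lymphoid markers also differed between held-out knockout and control, where genotype and gate cannot be told apart. Of 9 tested, 6 were called higher, beside 5.03% of all genes. The summed level of 10 markers was 751 to 1146 FPKM in held-out knockout, 214 to 575 in held-out control and 417 to 804 in DN2a. Zbtb16, Id2, Klrd1, Tyrobp, Fcer1g and Nfil3 were those called, and their part in the members' values was not tested. Gzmb (1.31) and Il2rb (2.27) were above 0 without being called. Nkg7 went the other way without being called, at a mean of 150 FPKM in knockout and 219 in control (-0.45). The summed level of 8 myeloid markers was 52.7 to 108 FPKM in held-out knockout and 26.6 to 41.2 in held-out control, with 1 of 5 tested called higher (Fcgr3). Fcgr3 alone averaged 55.4 FPKM in knockout and 5.03 in control. The other tested markers were not called: Lyz2 (-0.49), Csf2ra (-0.25) and Mpo (-0.20) were below 0 and Itgam (0.11) above. The B-cell markers Vpreb1 and Igll1 were called lower, 2 of 3 tested, beside 2.48% of all genes. Sums over 7 B-cell markers were 6.08 to 9.25 FPKM in held-out knockout and 8.78 to 20.6 in held-out control. The part of these was not tested either.

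**Figure D2:**
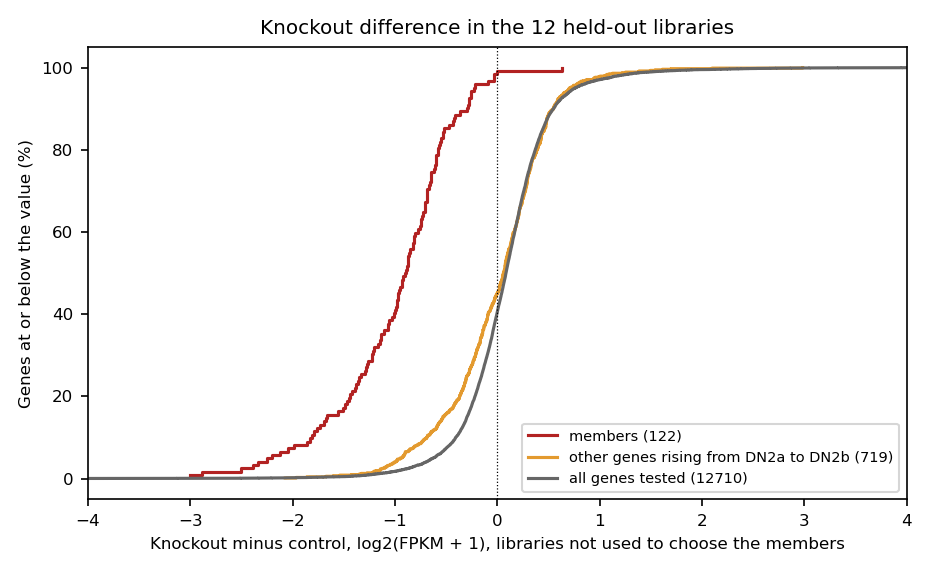
Cumulative share of genes (vertical axis, %) by their fitted knockout minus control difference in the 12 held-out libraries (horizontal axis, log2(FPKM + 1)), for the 122 members, 719 other genes higher in DN2b than in DN2a, and all 12710 genes tested. The members' curve is shifted to the left, with a median of -0.89, while those other genes have a median of 0.06 and all genes 0.08.

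Proximal T-cell receptor signalling was represented by 8 members. Lat, the scaffold that receptor-linked kinases phosphorylate, was the third most abundant member in DN2b. It stood at 384 and 147 FPKM in DN2b and at 49.2, 0.1, 31.6 and 0.1 in DN2a. The value 0.1 is the floor of the table. Whether it stands for a transcript that was not detected is uncertain in values named as batch-corrected. In the DL1 controls Lat was 126 at the lowest, 235 at the median and 330.1 at the highest, and in the DL1 knockout 49.7, 101 and 168. The knockout values lay above every DN2a value, and the control range overlapped the knockout range from above. In the held-out libraries Lat was 65.8, 79.6 and 106 (lowest, median, highest of 7) in knockout and 335, 353, 274, 159.7 and 160.2 in the 5 controls. These groups did not overlap, and the difference was -1.47 (SE 0.22, adjusted p = 0.00191, limma). Lat passed without each of the 12 libraries in turn, and did not pass with the date block (-1.33).

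Zap70, the kinase that binds phosphorylated receptor chains, was at 19.2 and 2.93 FPKM in DN2b and at 7.75, 0.1, 0.1 and 0.1 in DN2a. In the held-out controls it was 16.0, 18.1, 21.1, 12.5 and 12.4, and in the knockout 0.1, 3.20 and 10.9 (lowest, median, highest). All 5 controls lay above all 7 knockout libraries. The knockout difference was -1.83 (SE 0.51, adjusted p = 0.0486, limma), and this call was lost without any 1 of 9 libraries and with the block (-1.76). Nfatc2, a transcription factor activated by calcium, fell by 1.79 (SE 0.34, adjusted p = 0.00719, limma) and passed except without control DL4 reduced IL-7 replicate 1 (-1.47) or with the block (-1.75). Plcg1, the phospholipase recruited by Lat, was at 39.5, 98.5, 101, 52.0 and 68.3 FPKM in the held-out controls and at 14.4, 37.3 and 46.5 (lowest, median, highest) in the knockout. The groups overlapped through 1 control library, and the difference of -1.01 (SE 0.32) had an adjusted p of 0.0771 in limma.

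The other signalling members did not pass. Sit1, an adaptor that dampens receptor signals, had a difference of -1.14 (SE 0.49). Grap2, an adaptor that links Lat to Lcp2, had -0.57 (SE 0.28), and Skap1, an adaptor for integrin activation, had -0.58 (SE 0.23). Cd2, an adhesion receptor, had -0.03 (SE 0.22), with 29.2, 25.04, 42.0, 12.6 and 14.9 FPKM in controls and 19.4, 21.8 and 29.1 (lowest, median, highest) in knockout. Its difference was 0.60 within DL4 at standard IL-7. In the DL1 knockout Cd2 had been at 0.1 to 19.2 FPKM with a median of 0.20, and all 7 of those values lay below all 7 held-out knockout values. The list of receptor signalling genes held 36 tested genes, of which 6 were called lower and 1 higher in the held-out knockout. Over all genes 2.48% were called lower and 5.03% higher. Zap70, Lat and Nfatc2 among the lower ones are members, so the list's count in part follows from the choice. The lower ones beside members were Lck (-0.85, SE 0.21), Cd5 (-1.43, SE 0.21) and Sla2 (-0.80, SE 0.14), and the higher one was Txk (1.76, SE 0.19), a kinase of the Tec family.

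**Figure D3:**
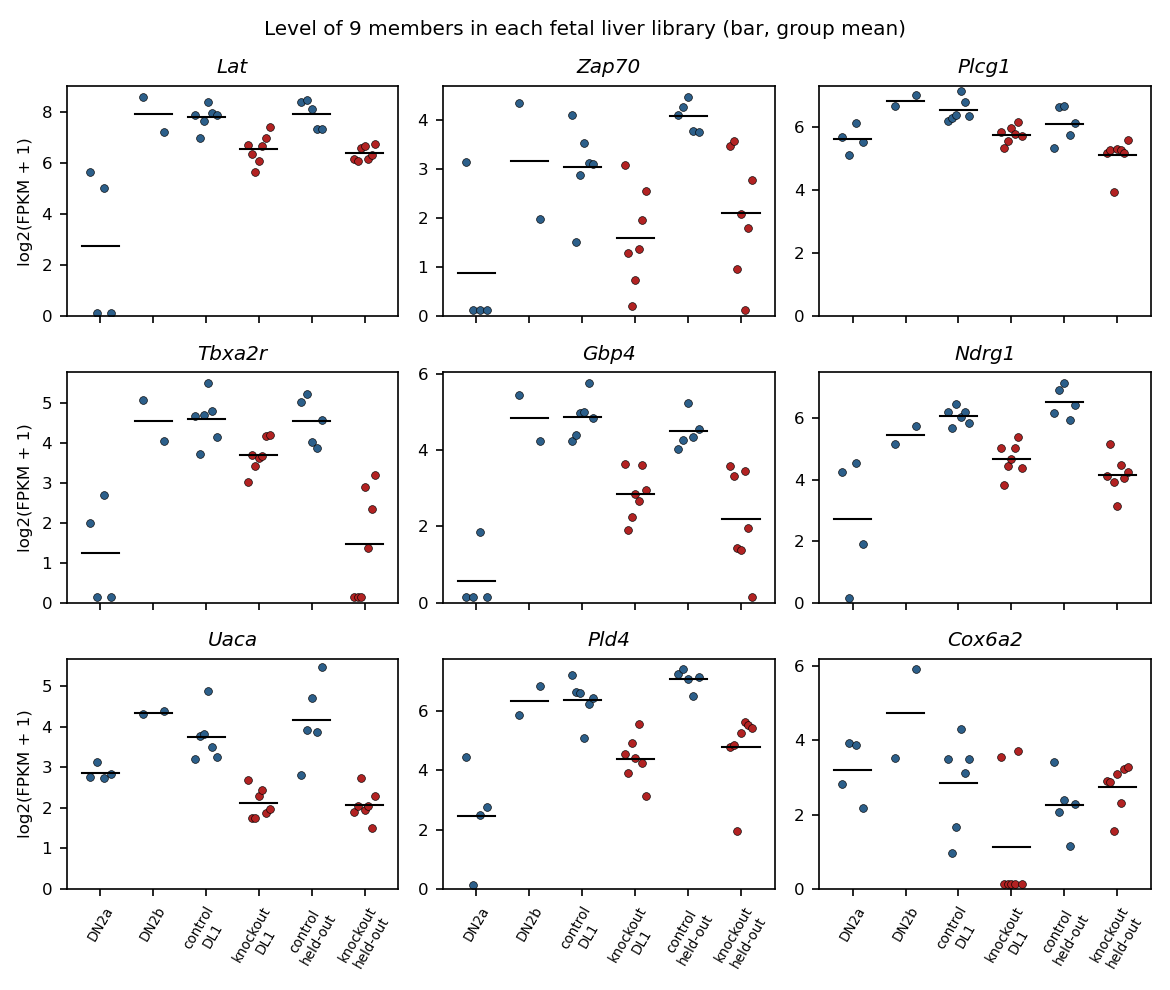
Level in log2(FPKM + 1) of 9 members (vertical axes) in normal DN2a and DN2b, in control and knockout cells on DL1 that chose the members, and in the held-out control and knockout libraries; points are libraries and bars group means. Lat, Zap70, Tbxa2r, Gbp4, Ndrg1, Uaca and Pld4 do not overlap between the held-out groups, Plcg1 overlaps through 1 control, and Cox6a2 was the only member with a difference above 0.

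Of the 3 recombination members 1 passed. Xrcc6, the Ku70 subunit that holds broken DNA ends, was 165, 103, 122, 139 and 153 FPKM in held-out controls and 27.6, 69.4 and 118 (lowest, median, highest) in knockout. It fell by 1.22 (SE 0.29, adjusted p = 0.0223, limma), although the highest knockout value lay above the lowest control. The call was lost without knockout DL1 reduced IL-7 replicate 1 (-1.08) and without control DL4 reduced IL-7 replicate 1 (-1.10), and with the block it was -1.54 without passing. Xrcc6 overlaps another member, Pppde2 (now Desi1, a deSUMOylating peptidase), on the genome. Pppde2 fell by 1.15 (SE 0.25, adjusted p = 0.0157, limma), a call lost without the same 2 libraries and with the block (-1.21). The protocol marks no strand, so reads of such overlapping genes cannot be told apart, which also holds for Plcg1 with Zhx3 and Igf2r with Airn.

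Rag1, a subunit of the recombinase, did not pass in the held-out libraries. Its values were 31.4, 43.3, 67.8, 129 and 271 FPKM in control and 4.25, 87.8 and 168 (lowest, median, highest) in knockout, with a difference of -0.26 (SE 0.71) and an adjusted p of 0.856 in limma. Dntt, the polymerase that adds bases at receptor junctions, stood above the floor in some libraries only. It was 453 and 0.80 FPKM in the 2 DN2b libraries, and 51.6, 0.1, 0.1 and 0.1 in DN2a. In the held-out controls it was 73.5, 51.0, 66.4, 0.1 and 0.1, the last pair being the controls with standard IL-7. The knockout held it at 71.8 and 71.2 in the 2 libraries of 1 title date, at 1.80 in 1 library and at 0.1 in the other 4. Of the 10 recombination genes tested, 1 (the member Xrcc6) was called lower and 0 higher, beside 2.48% and 5.03% of all genes.

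Receptor segments were also members. Tcrg-V2 (now Trgv2), a gamma-chain variable segment, was at the floor in 3 of 4 DN2a libraries (153 in replicate 2) and at 314 and 297 FPKM in DN2b. In the held-out libraries it was 277 to 627 in control and 196, 375 and 495 (lowest, median, highest) in knockout, with a difference of -0.0025 (SE 0.26). Tcrg-V7 likewise had -0.09 (SE 0.25). In the DL1 libraries that chose it, Tcrg-V2 was 6.57, 225 and 359 (lowest, median, highest) in knockout and 146, 271 and 593 in control. Counts of segments such as these, of Gbp and Ly6 family genes, of Tubb2a and of the pseudogene Rpl30-ps9 can be shared with near-identical copies, so their values are uncertain. Rpl30-ps9, the most abundant member in DN2b, had a difference of -0.27 (SE 0.54), and 3 of its held-out knockout libraries carry the same value of 280.0 FPKM. Such equal values above the floor occurred for 8 members, Nfatc2 among them with 1.76 in 2 knockout libraries, and how they arose is not given in the sources used here. They may stand for transcripts that were not detected, which was not tested, so these levels are uncertain.

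Guanylate-binding proteins, GTPases that interferons induce in many cells, contributed 3 neighbouring members. Gbp4 was 42.1 and 17.9 FPKM in DN2b and 0.1, 0.1, 2.64 and 0.1 in DN2a. In the held-out controls it was 15.4, 18.4, 36.6, 19.4 and 22.6, and in the knockout 0.1, 2.88 and 11.1 (lowest, median, highest). All controls lay above all knockout libraries, and Gbp4 fell by 2.25 (SE 0.58, adjusted p = 0.0352, limma). Gbp8 fell by 1.86 (SE 0.50, adjusted p = 0.0434, limma), and Gbp9 had -1.44 (SE 0.49) with an adjusted p of 0.102. The Gbp4 call was lost without any 1 of 6 libraries and the Gbp8 call without any 1 of 7, and neither passed with the block (-2.76 and -2.42). Gbp8, Gbp9 and Gbp4 lie next to each other in the RefSeq annotation, as do Ly6a and Ly6c1, Slc16a5 and Armc7, and Trbv2 and Trbv3. Of 18 guanylate-binding and immunity-associated GTPases tested, 2 (the members Gbp4 and Gbp8) were called lower and 4, all of the Gimap family, higher. Over all genes the shares were 2.48% and 5.03%.

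Beside Gbp4, the members with the most negative held-out differences had other roles. Tbxa2r, the thromboxane receptor, was 31.2, 36.5, 15.3, 13.6 and 22.9 FPKM in held-out controls and 0.1, 1.58 and 8.08 (lowest, median, highest) in knockout. It fell by 3.01 (SE 0.59, adjusted p = 0.00915, limma), a call lost without control DL4 reduced IL-7 replicate 1 (-3.02), without knockout DL1 reduced IL-7 replicate 1 (-2.33) and with the block (-2.92). In the DL1 knockout it had been 7.09, 11.8 and 17.4 FPKM, above all 4 DN2a values (5.43 at most). Ndrg1, a gene induced by differentiation and low oxygen, was 70.8, 121, 140.4, 60.8 and 85.9 in controls and 7.92, 16.3 and 34.7 in knockout. Every control lay above the knockout range, and Ndrg1 fell by 2.39 (SE 0.33, adjusted p = 0.00128, limma). Cd59a, an inhibitor of the complement attack complex, was 9.97, 4.06, 4.67, 6.05 and 12.4 in controls and 0.1, 0.27 and 0.96 in knockout. It fell by 2.51 (SE 0.28, adjusted p = 0.000394, limma). Ndrg1 and Cd59a passed with the block (-2.34 and -2.63) and without each library in turn.

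Uaca, a regulator of apoptosis, was also lower in DL1 knockout than in DN2a. It was 5.83, 7.75, 5.65 and 6.12 FPKM in DN2a, 18.8 and 19.8 in DN2b, and 2.35, 2.92 and 5.40 (lowest, median, highest) in the DL1 knockout. The held-out controls were 5.98, 14.2, 25.4, 13.7 and 43.6, and the held-out knockout libraries 1.81, 3.14 and 5.62. Uaca fell by 2.34 (SE 0.34, adjusted p = 0.00182, limma), passing without each library and not with the block (-2.11). Pld4, an exonuclease that degrades single-stranded nucleic acid in endolysosomes, was 150.4, 169, 136, 89.8 and 143 in controls and 2.84, 37.7 and 48.6 in knockout. It fell by 2.13 (SE 0.52, adjusted p = 0.0263, limma), a call lost without any 1 of 4 libraries and with the block (-2.58).

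Ccdc109b (now Mcub), which restrains the mitochondrial calcium uniporter, fell by 2.21 (SE 0.43, adjusted p = 0.00894, limma), and Klc3, a kinesin light chain, by 1.99 (SE 0.29, adjusted p = 0.00168). Both passed without each library and not with the block (-2.31 and -1.77). Ly6c1, a surface antigen of the Ly6 family, fell by 2.05 (SE 0.45, adjusted p = 0.0158), lost without control DL4 reduced IL-7 replicate 1 (-2.24), without knockout DL1 reduced IL-7 replicate 1 (-1.35) and with the block (-2.001). Tubb2a, a beta tubulin, had -2.89 (SE 0.89) and did not pass, with 4 of 7 held-out knockout libraries at the floor. Arpp21, also high in later CD4+ CD8+ thymocytes, fell by 0.88 (SE 0.21, adjusted p = 0.0257), lost without any 1 of 3 libraries and with the block. Cd82, a tetraspanin, and Ablim1, an actin-binding protein, had -0.60 (SE 0.20) and -1.28 (SE 0.41) and did not pass.

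Among transcription factors and signal transducers of the set, Socs3, an inhibitor of cytokine signalling, fell by 0.71 (SE 0.15, adjusted p = 0.0120, limma), a call lost without control DL4 reduced IL-7 replicate 1 (-0.73), without knockout DL1 reduced IL-7 replicate 1 (-0.68) and with the block (-0.70). E2f2, a cell-cycle factor, fell by 1.11 (SE 0.24, adjusted p = 0.0159, limma), a call lost without control DL4 reduced IL-7 replicate 1 (-1.004), without control DL4 standard IL-7 replicate 2 (-0.97) and with the block (-1.06). These 2 were named by role after their values were seen. Gfi1, a repressor needed by early thymocytes, had -0.55 (SE 0.18), Smad3, a transducer of TGF-beta signals, -0.69 (SE 0.28), and Nfkb2 -0.86 (SE 0.27), and none of the 3 passed. Gfi1 was the only member among 28 tested T-lineage transcription factors. Of these 0 were called lower and 1 higher, beside 2.48% and 5.03% of all genes. At an unadjusted p under 0.05, 88 of 122 members and 2964 of all genes passed.

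The least negative held-out differences belonged to Cox6a2, Tcrg-V2, Cd2, Itgae and Tcrg-V7. Cox6a2, a subunit of cytochrome oxidase, was 9.56, 3.23, 4.26, 1.22 and 3.86 FPKM in held-out controls and 1.92, 6.49 and 8.73 (lowest, median, highest) in knockout. Its difference was 0.63 (SE 0.38), above 0 but not passing. In the DL1 knockout 5 of 7 libraries had it at the floor. Itgae, the CD103 integrin chain, had -0.03 (SE 0.34), and Slamf6, a surface receptor of the SLAM family, had -0.71 (SE 0.47). Of 29 receptor and trafficking genes tested, 0 were called lower and 5 higher, beside 2.48% and 5.03% of all genes.

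GSI-treated cells gave the stage difference in libraries the rule did not use, although their titles pair them with untreated libraries that chose the members. Residuals of these pairs correlated at 0.522 to 0.605. The stage differences below therefore in part follow from the choice and are no independent test of it. With 2 libraries a stage, 3 members were called higher in DN2b (Ly6c1, Gbp4 and Gfra1), beside 0.169% of all genes, and 0 lower. All 122 members were above 0, with a median of 1.64 (all genes 0.11); with quantile normalization 119 were, with a median of 1.44. Gbp4 was 47.7 and 22.4 FPKM in GSI-treated DN2b and listed at 0.1 in both DN2a libraries. Its difference was 4.94 (SE 0.40, adjusted p = 0.0367, limma). Gfra1, a coreceptor for GDNF, averaged 48.7 ± 14.7 FPKM (SD, n = 2) in DN2b and 2.57 ± 1.28 (SD, n = 2) in DN2a. With a block of DN2a and DN2b libraries whose titles overlap in a month (each DN2a title gives more than 1 month), 0 members were called and the median was 1.64. Without any 1 of the 4 libraries the fit had 1 residual degree of freedom and called 0 members, with medians of 1.31 to 1.95.

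GSI-treated and untreated cells of the same stage were compared next. Of 122 members 0 were called, beside 0.0% of all genes (limma, stage as covariate, 4 treated against 4 untreated libraries). At an unadjusted p under 0.05 there were 7 members and 297 of 12783 genes, and with culture pairs as a replicate block 26 members and 1323 genes. The median difference was 0.02, with 58 members below and 64 above 0. Lat was 447 and 154 FPKM with GSI and 384 and 147 without it in DN2b. The untreated libraries are among those that chose the members.

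In vivo deletion was represented by 1 thymic library, titled DN2a, labelled as a Bcl11b knockout by LckCre, which acts in thymocytes, beside 1 thymic DN3 control with LckCre. Bcl11b was 36.4 FPKM against 105, and the summed natural killer and innate lymphoid markers were 493.2 against 97.5, whose part was not tested. Stage and genotype cannot be told apart in this pair, and no test is possible with 1 library each. The knockout library was lower by 1 or more for 60 of 122 members (49.2%), beside 3.56% of all genes at 1 FPKM or more in either library. The median was -0.98, and 108 members were below 0. Klc3 was listed at 0.1 FPKM against 15.7, Pld4 was 4.16 against 69.3, and Ndrg1 was 4.41 against 52.8. Lat was 142 against 392 and Plcg1 22.8 against 69.6, whereas Cd2 was higher, at 40.1 against 17.2.

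Deletion after commitment was measured in thymic DN3 cells treated with 4-OH tamoxifen and cultured for 4 days on OP9-DL4. Both libraries carried CreERT2 and tamoxifen, and the knockout also carried floxed Bcl11b. Bcl11b was 23.8 FPKM against 79.3, and the same marker sum was 703 against 71.7, whose part was not tested. The knockout library was lower by 1 or more for 47 of 121 members (38.8%), beside 4.69% of all genes. It was higher by 1 or more for 7 members, for which the share over all genes was not computed. The median was -0.71 (all genes 0.10). Against the other cultured control, harvested after 3 days on another date, 38 members were lower by 1 or more and the median was -0.45. Uaca was 0.35 FPKM against 16.3, Cd2 3.14 against 105, Dntt 125 against 763 and Sit1 10.9 against 39.4. In contrast Plcg1 (51.2 against 63.9), Nfatc2 (4.74 against 4.95) and Xrcc6 (179.5 against 199.7) differed by less than 1 on the log2 scale. Of the 49 members called lower in the held-out fetal liver cells, 30 were lower by 1 or more in the LckCre pair, 24 in the cultured DN3 pair and 17 in both. Among all members 27 were lower by 1 or more in both pairs. The share of all genes lower in both was not computed, so nothing is read from this overlap.

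The bone marrow pair, tamoxifen-treated CreERT2 cells grown on DL4, had nearly equal Bcl11b, 45.0 FPKM in the library labelled knockout and 44.9 in the control. In the library labelled knockout, 4 of 121 members (3.31%) were lower by 1 or more, beside 1.39% of all genes. The 4 were Eps8l1, Mpzl2, Dapk1 and Cd59a. Another 8 members were higher by 1 or more, for which the share over all genes was not computed. The members' median was 0.16. Rag1 was 43.1 FPKM in the library labelled knockout and 1.25 in the control.

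Vector libraries came from 1 date, at day 12 and 36 hours after transduction, with knockout and control cells both titled DN2b. DL1 control replicate 5 and DL1 knockout replicate 6, which helped choose the members, share this title date, day and DN2b title. The knockout differences in the vector libraries may therefore in part follow from the choice and are no independent test of it. Between knockout and control with the empty vector, 20 of 119 members (16.8%) were lower by 1 or more, beside 3.19% of all genes, and 103 were below 0. The median was -0.51 (all genes 0.17). In the control library 1 predicted gene took 26.7% of the summed FPKM, and with quantile normalization 33 members were lower by 1 or more. Zap70 was 2.75 FPKM in knockout and 16.3 in control, and Cd2 was 5.68 and 24.4. Lat was 107 and 174. Tbxa2r (10.4 in both), Pld4 (39.9 and 39.8) and Ndrg1 (23.8 and 24.4) were nearly equal in this pair.

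The Bcl11b vector carried the isoform of exons 1, 2 and 4. Bcl11b was 24.7 FPKM with the empty vector and 105 with it. In knockout cells 10 of 118 members (8.47%) were then higher by 1 or more, beside 1.87% of all genes. There were 103 members above 0 (87.3%, all genes 50.7%), and the median was 0.40 (all genes 0.01). Uaca was 0.44 FPKM with the empty vector and 5.89 with Bcl11b, although the control with the empty vector had 0.1. Trav18, a receptor segment, was 1.77 and 6.89, Wdr78, a dynein chain, was 5.20 and 14.1, and Cd59a was 2.68 and 7.52, beside 7.56 in the control. Tctex1d1, another dynein-related gene, was 3.84 and 9.96. Among members at 5 FPKM or more in either library, Rpl30-ps9 (757 without and 197 with Bcl11b), Tcrg-V7 (10.1 and 3.93), Eps8l1 (6.52 and 4.71), Camk1d (5.31 and 4.06) and Plekhg2 (14.2 and 12.1) had the most negative differences. Of the 20 members lower by 1 or more in knockout with empty vector, 15 were higher with Bcl11b, 5 of them by 1 or more, Cd59a and Ccdc18 among them. The 2 comparisons share the knockout library with empty vector. The matching share over all genes was not computed, so nothing is read from the counts of 15 and 5. Of the signalling members, Lat was 167 with Bcl11b (174 in the control), Plcg1 63.4 (63.1), Zap70 4.40 (16.3) and Sit1 5.87 (8.75). The summed natural killer and innate lymphoid markers were 1560.2 FPKM with empty vector, 1127 with Bcl11b and 401 in the control, and their part was not tested.

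**Figure D4:**
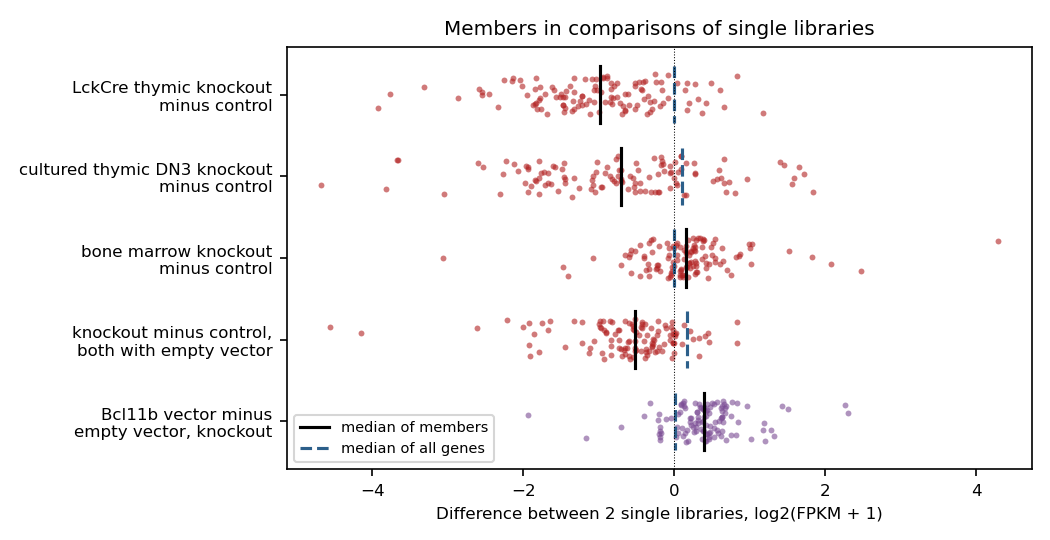
Each point is 1 member, placed by the difference between 2 single libraries in log2(FPKM + 1) (horizontal axis), for 4 knockout comparisons and for the Bcl11b vector in knockout cells; solid bars are the members' median and dashed bars the median of all genes at 1 FPKM or more. The members' medians are -0.98, -0.71, 0.16, -0.51 and 0.40 from top to bottom.

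At the thresholds, the members just inside the knockout difference were Sit1 (-0.7547), Xrcc6 (-0.762) and Ehd3 (-0.763), and the nearest genes outside were Folr4 (-0.7453), Prkd2 (-0.7401) and Fbln2 (-0.7352). Smad3 (1.0062) and Camk1d (1.0063) were just inside the stage difference, and Agpat4 (0.9898), Mtf2 (0.9683) and Gnb1l (0.9626) just outside. At the level threshold Arhgap31 (5.00 FPKM), Llgl2 (5.05) and Slc37a2 (5.14) were inside and Unc13b (4.65) and Plcl1 (4.38) outside.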

How the data were processed

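RNA-seq of 47 libraries was analysed from 1 table of FPKM values. Per the labels, RNA was selected with oligo-dT and fragmented, and the libraries mark no strand. Per the submitters' processing notes the genome build was mm9. The authors deposited FPKM values that, per the name of the table, had been through the ComBat batch correction, and its batch variable is not given in the sources used here. The lowest value is 0.1, called the floor. Read depth is unknown and no counting interval can be given. Between 0.468% and 6.67% of genes stood at the floor per library, with 11756 to 13370 genes at 1 FPKM or more. There were 16 columns that matched no sample, and they were not used.

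Tests were run with limma 3.58.1 in R 4.3.3 on log2(FPKM + 1) over genes at 1 FPKM or more in as many libraries as the smaller group, with Benjamini-Hochberg adjustment. A difference on this scale understates the change of low genes. The script was tested on simulated data. Where the labels do not say that replicates are separate cultures, p-values measure only the spread between these libraries. The title dates pair some libraries. Residuals of 4 GSI and untreated pairs correlated at 0.522 to 0.605, and those of 4 held-out pairs at -0.529 to -0.291. In the held-out fit residuals sum to 0 within each stroma and IL-7 condition. The held-out correlations therefore cannot show whether date pairs deviate together. With culture pairs as a block, 0 members were called for GSI.

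Genes named were the 12 members highest in DN2b, the 10 most negative and 5 most positive held-out differences, the 5 largest rises and falls with the Bcl11b vector, members in fixed lists, members at the thresholds, and others by role. The members and lists were chosen with earlier results of these data known. Symbols were matched to RefSeq promoters of GRCm38.p6. Tables were made with Python 3.11.15 and pandas 2.3.3. Results for some members are not reported here.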

Additional observations from a re-analysis of the deposited data

Results flagged for a closer look

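For 21 members and the library median, 66 tests were made in the groups of 4 DN2a, 6 DL1 control and 7 DL1 knockout libraries. In 8 of them Dixon's test found 1 library far from the rest. Chance gives about 1 in 20 for normally distributed values, a rate that does not apply where all other libraries are tied at the floor. Such ties held for Dntt in DL1 knockout and DN2a, and for Gbp4 and Tcrg-V2 in DN2a. The count is therefore not set against chance. Dntt was 30.45 FPKM in DL1 control replicate 1 (next 7.41), 15.61 in DL1 knockout replicate 1 (next 0.1) and 51.605 in DN2a replicate 1 (next 0.1). Rpl30-ps9 was 553.353 in DL1 control replicate 4 (next 337) and 269.982 in DN2a replicate 2 (next 24.9). Uaca was 28.315 in DL1 control replicate 4 (next 13.1). Gbp4 was 2.641 in DN2a replicate 3 and Tcrg-V2 was 153.237 in DN2a replicate 2, with the other DN2a libraries at 0.1.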

How the results depend on the processing

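Members called lower in the held-out knockout numbered 49 as reported. They were 3 with the replicate block of 4 date pairs, 15 within DL4 at standard IL-7, 18 within reduced IL-7, 29 within DL4, and 17 to 55 when each library was left out in turn. All genes called in either direction numbered 22 with the block, 1653 without covariates, and 268, 430 and 451 in the same 3 subsets. They numbered 363 to 1067 when each library was left out. Whether the date pairs deviate together in the held-out libraries cannot be read from their residuals. The main fit makes residuals sum to 0 within each stroma and IL-7 condition. The block keeps 8 of 12 of these libraries. In GSI-treated cells, 0 members and 1 gene were called with no filter on low values and with the block, and 0 members and 0 to 1 gene when a library was left out. Quantile normalization gave 33 members lower with the empty vector. With a knockout threshold of -1 there were 66 members, with a pseudocount of 0.1 there were 157 (all 122 shared), and without the DN2b library titled DN3 there were 103 (91 shared).

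Some differences changed sign, none of them past the threshold. The held-out difference of Cd2 was 0.60 within DL4 at standard IL-7 and 0.0618 within DL4. Within reduced IL-7 it was 0.65 for Itgae, 0.10 for Rag1, 0.0724 for Tcrg-V2 and 0.18 for Tcrg-V7. Quantile normalization gave 0.11 for Tcrg-V2. When each library was left out, the ranges were -0.20 to 0.28 for Cd2, -1.29 to 0.37 for Dntt, -0.30 to 0.17 for Itgae, -0.77 to 0.13 for Rag1, -0.51 to 0.10 for Rpl30-ps9, -0.14 to 0.16 for Tcrg-V2 and -0.34 to 0.0492 for Tcrg-V7. The GSI-treated stage difference ranged from -0.60 to 2.60 for Cd2, -2.36 to 5.89 for Dntt, -0.28 to 2.51 for Sit1 and -0.88 to 2.63 for Zap70. The cause was not tested.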
